A study of Homo sapiens with 8 samples.

Results

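The nuclear-encoded respiratory chain genes were taken as the protein-coding genes whose symbol begins with NDUFA, NDUFB, NDUFC, NDUFS or NDUFV and a number, is SDHA, SDHB, SDHC or SDHD, or begins with UQCR, with COX and a digit from 4 to 8, or with ATP5. The choice used names only and no measured value. It gave 84 of the 19770 genes in the expression tables, 37 of complex I, 4 of complex II, 9 of complex III, 15 of complex IV and 19 of complex V, spread over 22 chromosomes. NDUFA4 and NDUFA4L2 were counted with complex IV, where the NDUFA4 protein resides. Of the 84 members, 82 reached 1 CPM (reads of a gene scaled to a library total of 1000000) in at least 2 libraries and were tested, and 80 had a mean of at least 10 CPM. The other 2, COX6B2 and COX8C, were below 1 CPM in all 8 libraries. The isoform genes COX4I2, COX6A2, COX7A1 and COX7B2 had no protein-coding entry under these symbols in the expression tables, so they were not analysed here.

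The RNA-seq libraries were made from HEK293T, a widely used line of human embryonic kidney origin, at 72 h after transfection to ask how specific CRISPR-based activation of HBG1 and HBG2 was across the transcriptome. There were 4 groups of 2 libraries each. The control received dCas9 and MCP-mCherry, which carries no activation domain. CRISPR-DREAM combined dCas9 with MCP-MSN, a fusion of transcription factor activation domains including that of NRF2, and SAM combined dCas9-VP64 with MCP-p65-HSF1. In the dCas9-VPR group the VPR effector was fused to dCas9 and delivered from 1 plasmid in place of a pair. The same 4 pooled gRNAs, aimed at HBG1 and HBG2, were given to all groups including the control. They carried MS2 loops in all groups but dCas9-VPR. All transfections were transient, so each library averages over transfected and untransfected cells. The methods state that sequencing was done in duplicate, and nothing says whether the 2 libraries of a group came from separate cultures. Each p-value therefore measures only the spread between these libraries, which may be technical.

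The respiratory chain passes electrons from NADH and succinate to oxygen in the inner mitochondrial membrane and uses the energy to pump protons. Complex I oxidizes NADH, complex II oxidizes succinate, complex III passes electrons from coenzyme Q to cytochrome c, complex IV reduces oxygen, and complex V, the ATP synthase, lets the protons back to make ATP. Most subunits are encoded in the nucleus, and mitochondrial DNA encodes the hydrophobic centres of complexes I, III, IV and V. Nuclear respiratory factor 1 (NRF1) and the ETS factor GABP, also called nuclear respiratory factor 2, are classical regulators of these genes. GABP is not the NRF2 of the MSN effector, which is the product of NFE2L2.

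The bases just before the start site are shown for some of the members with large called changes that RefSeq promoter sequences covered. Of those shown, 4 were higher than the control in at least 1 group (NDUFB2, NDUFV2, NDUFA12 and NDUFA3) and 2 were lower (NDUFB3 and ATP5MC2). COX6C, the largest called fall relative to the control, is not among them. Each run is 150 bases of GRCh38.p14, 5′ to 3′ on the strand of the gene and ending at the base before the RefSeq start, namely chr7:140696558-140696707 (NDUFB2, plus strand), chr18:9102549-9102698 (NDUFV2, plus), chr12:95003698-95003847 (NDUFA12, minus), chr19:54102705-54102854 (NDUFA3, plus), chr2:201071851-201072000 (NDUFB3, plus) and chr12:53676084-53676233 (ATP5MC2, minus). Capitals mark matches to the motifs listed in the next paragraph, which are NRF1 matches in NDUFA12, NDUFA3 and ATP5MC2 and Sp1 matches in NDUFB2 and NDUFV2.
NDUFB2: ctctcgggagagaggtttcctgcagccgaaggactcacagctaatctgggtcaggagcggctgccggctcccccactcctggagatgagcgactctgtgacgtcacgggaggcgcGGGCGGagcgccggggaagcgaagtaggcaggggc
NDUFV2: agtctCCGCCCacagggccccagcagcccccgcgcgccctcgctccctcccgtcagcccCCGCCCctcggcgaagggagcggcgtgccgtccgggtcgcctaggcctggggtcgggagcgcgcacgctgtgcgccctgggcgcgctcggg
NDUFA12: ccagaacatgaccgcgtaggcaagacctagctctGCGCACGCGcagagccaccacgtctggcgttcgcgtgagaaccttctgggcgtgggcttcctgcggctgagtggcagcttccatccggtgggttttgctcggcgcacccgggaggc
NDUFA3: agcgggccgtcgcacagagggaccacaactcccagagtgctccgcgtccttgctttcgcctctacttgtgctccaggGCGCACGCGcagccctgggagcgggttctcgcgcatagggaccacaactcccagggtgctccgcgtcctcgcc
NDUFB3: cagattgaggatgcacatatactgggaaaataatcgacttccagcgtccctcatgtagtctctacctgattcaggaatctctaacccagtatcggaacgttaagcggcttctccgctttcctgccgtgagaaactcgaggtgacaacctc
ATP5MC2: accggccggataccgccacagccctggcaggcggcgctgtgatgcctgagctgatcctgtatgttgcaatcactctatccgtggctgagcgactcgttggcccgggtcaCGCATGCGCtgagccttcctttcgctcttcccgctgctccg

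Motifs were searched on both strands in 300 bases around the start site, 250 before it and 50 after it, for the 67 members with a promoter sequence. The motifs were GCGCANGCG for NRF1, CCGGAAG for GABP and other ETS factors, AAGATGGCG for YY1, GGGCGG for Sp1, CCAAT for the CCAAT box and TNAAGGTCA for the estrogen-related receptors (ERR). An NRF1 match was in 22 of the 67 members (32.8%), compared with 13.5% of the 11916 protein-coding genes with a promoter sequence and 16.9% of the 7859 with a mean of at least 10 CPM. A GABP/ETS match was in 20 members (29.9%, compared with 17.3% and 21.4%), and a YY1 match was in 8 (11.9%, compared with 3.51% and 4.75%). Either an NRF1 or a GABP/ETS match was present in 37 of the 67. The general promoter motifs were no more frequent than elsewhere, with Sp1 in 62.7% of the members compared with 68.7% and 73.8%, and CCAAT in 34.3% compared with 36.2% and 37.7%. ERR matches were in 2 members (2.99%, compared with 0.520% and 0.407%). Among the promoters shown, members that were higher and a member that was lower than the control carry an NRF1 match. The higher members NDUFB2 and NDUFV2 and the lower member NDUFB3 have no NRF1 or GABP/ETS match in the window. A match is a description of the letters and does not show binding.

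**Figure D1:**
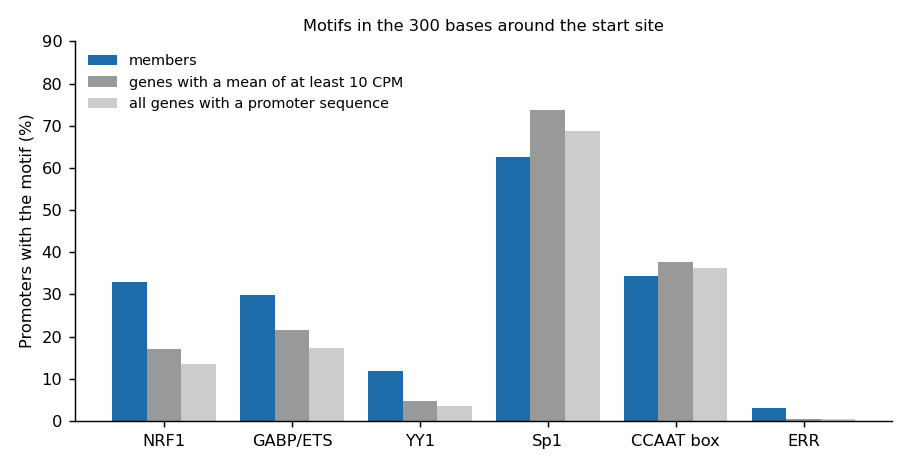
Share of promoters (y axis, percent) with each of 6 motifs (x axis) in 300 bases around the start site, for 67 members (blue), 7859 genes averaging at least 10 CPM (dark grey) and 11916 protein-coding genes (light grey). NRF1, GABP/ETS and YY1 matches are more frequent among members, at 32.8%, 29.9% and 11.9%, and Sp1 and CCAAT matches are not.

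Depth was estimated at 28450000 to 35140000 reads per library from the spacing of low CPM values, so that 3 reads correspond to 0.0854 to 0.105 CPM, far below nearly all members. All 6 HEK293T markers were measured, summing to between 517 and 688 CPM per library, but they were uneven. PAX2 was the lowest, between 0.798 and 1.73 CPM. Vimentin (VIM) spanned 267 to 440 CPM. The control libraries had 396 and 344 CPM of VIM, CRISPR-DREAM 318 and 267, SAM 330 and 276, and dCas9-VPR 440 and 411. KRT8 rose from 50.2 and 45.2 CPM (control) to between 78.5 and 113 CPM in the other 6 libraries. NEFL and KRT18 also exceeded both control libraries there. Markers of differentiated kidney summed to at most 3.06 CPM (3 of 7 in the tables), the erythroid marker SLC4A1 to at most 0.341 CPM (1 of 3), and markers of heart and skeletal muscle to at most 3.10 CPM (3 of 5). The muscle sum was 0.685 and 0.957 CPM in the control and 2.25 to 3.10 CPM in the other 6 libraries, most of it CKM. Its part in the results, and that of the HEK293T marker differences, was not tested.

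Together the members made up 1.5% to 1.63% of all CPM in every library. The most abundant was ATP5F1B, the catalytic beta subunit of the ATP synthase, with a mean of 1338 CPM. Per kilobase of the canonical transcript, the highest level in each complex was that of NDUFA13 in complex I (585 CPM per kb), SDHC in complex II (154), UQCRH in complex III (563), COX6A1 in complex IV (957) and the c-ring gene ATP5MC2 in complex V (793). Medians were taken over members with a mean of at least 1 CPM, which left out COX6B2 and COX8C and kept 13 of 15 complex IV genes. The median was 113 CPM per kb in complex I, 126 in complex II, 110 in complex III, 281 in complex IV and 214 in complex V. On this scale the typical complex IV and V gene was thus expressed at a higher level than the typical complex I gene. In 10 members the canonical transcript exceeded 3000 bases, which lowers their value per kb.

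In the COX6B, COX8 and NDUFA4 sets of complex IV, 1 gene carried nearly all of the level. Of the complex IV genes, COX6B1 lay between 162 and 202 CPM and COX8A between 299 and 357 CPM, whereas COX6B2 and COX8C did not exceed 0.728 and 0.359 CPM. NDUFA4 lay between 167 and 205 CPM and its paralog NDUFA4L2 between 2.22 and 3.21 CPM. In contrast, COX7A2 and COX7A2L were both abundant, at 193 to 257 and 216 to 248 CPM. The c-ring genes ATP5MC1, ATP5MC2 and ATP5MC3, which encode the same mature protein, were all abundant, at 116 to 157, 446 to 530 and 331 to 389 CPM. UQCRHL lay between 23.2 and 29.0 CPM. It aligned to UQCRH over 276 bases with 4 differences, so its level beside the 283 to 323 CPM of UQCRH depends on how the authors' quantification divided shared reads.

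As a share of CPM, the summed level of the members differed little between groups. All 84 summed to 14987 and 15600 CPM in the control, 15018 and 16329 with CRISPR-DREAM, 15172 and 15748 with SAM, and 15517 and 15853 with dCas9-VPR, and each system overlapped the control. Complex III, IV and V sums also overlapped the control in all 3 systems, with mean differences from -2.18% to 2.54%. Complex I and complex II sums did not overlap. For complex I the control libraries summed to 3982 and 4082 CPM, compared with 4119 and 4404 for CRISPR-DREAM, 4227 and 4309 for SAM and 4192 and 4220 for dCas9-VPR. For complex II they summed to 623 and 633 CPM, compared with 689 and 735, 696 and 727, and 675 and 693. The mean difference from the control was 5.69%, 5.86% and 4.32% for complex I and 13.4%, 13.3% and 8.88% for complex II, in the order CRISPR-DREAM, SAM and dCas9-VPR. All 3 systems were compared with the same control libraries.

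These small differences depended on how libraries were scaled. CPM gives a share of the library. The cytosolic ribosomal protein genes took up 20.1% of CPM in the control and 18.1%, 17.2% and 17.9% with CRISPR-DREAM, SAM and dCas9-VPR. How much of the dependence on scaling goes with this share was not tested. Each library was instead divided by its median ratio to the geometric mean of the 8 libraries, over genes above 0 in all 8 (median-of-ratios scaling). Complex I sums then differed from the control by 0.400% with CRISPR-DREAM, -6.71% with SAM and 0.622% with dCas9-VPR, and complex II sums by 7.69%, -0.166% and 5.03%. The complex II sum remained above both control libraries with CRISPR-DREAM and dCas9-VPR and overlapped them with SAM, and the complex I sum fell below them with SAM. With SAM the sums of complexes III, IV and V also lay below both control libraries on this scale, by a mean of -13.8%, -13.2% and -12.9%, and the sum of all 84 members by -10.9%. With CRISPR-DREAM and dCas9-VPR these sums overlapped the control under both scalings. Fewer cells expressing a gene and less RNA per cell cannot be told apart in these bulk libraries.

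**Figure D2:**
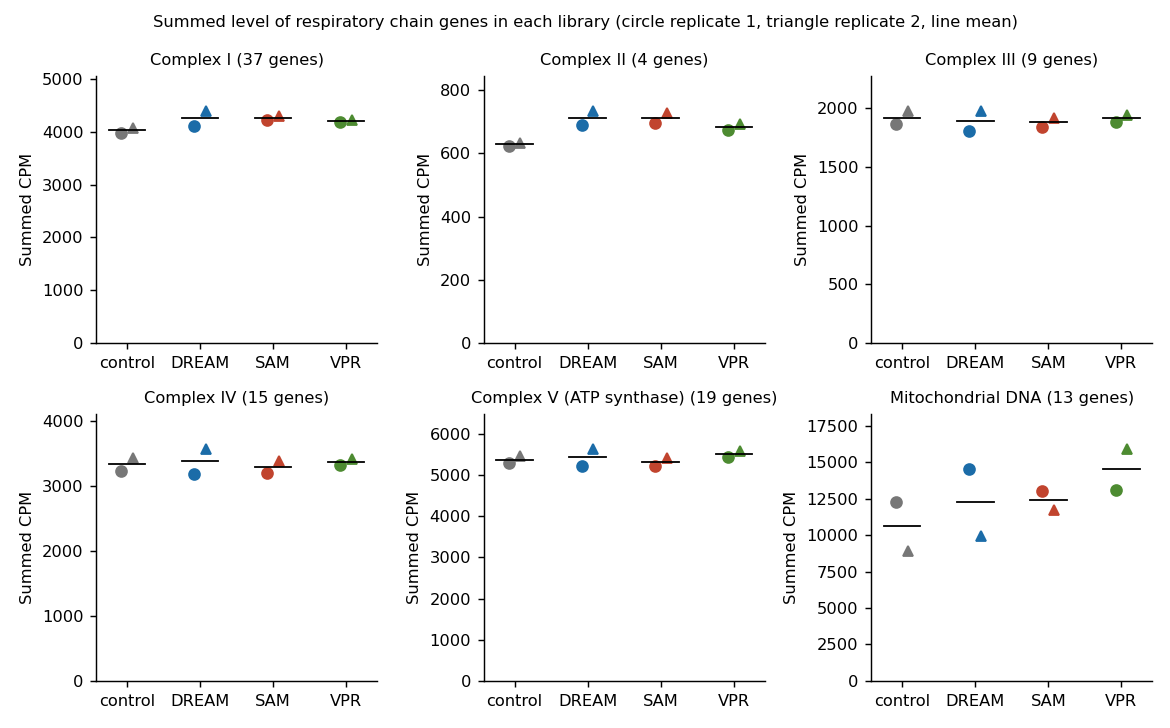
Summed CPM (y axes, from 0) of the nuclear-encoded members of each complex and of the 13 mRNAs of mitochondrial DNA in each library, by group (x axes), with circles for replicate 1, triangles for replicate 2 and lines for group means. As CPM, complexes I and II lie above the control in all 3 systems and complexes III to V overlap it. After median-of-ratios scaling, which is not plotted, complexes I to V with SAM are -6.71%, -0.166%, -13.8%, -13.2% and -12.9% from the control and all but complex II lie below it, and complex I overlaps it with the other systems.

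Relative to the control, CRISPR-DREAM left most members close to their control level. At a false discovery rate (FDR) below 0.05 in limma, 9 of 82 tested members were higher and 3 were lower, against 18.8% of all 15122 genes tested that were higher and 9.25% that were lower. The median log2 fold change was 0.04 over the members and 0.06 over all genes. Of the 9 higher members, 7 belonged to complex I, 1 to complex II and 1 to complex V, and the lower members were NDUFB3, UQCRB and COX6C, of complexes I, III and IV. The largest changes were those of NDUFB2 and ATP5MF-PTCD1, both 0.41 (limma adjusted p = 0.00117 and 0.0241). No member passed a fold change of 2, which 2.04% of genes exceeded upward and 0.503% downward at the same FDR. After median-of-ratios scaling 3 members were higher (NDUFB2, NDUFV2 and SDHC) and 5 lower, including the same 3, against 13.7% and 14.4% of all genes on that scale.

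With SAM a smaller share of the members than of all genes was called. Of 82 members, 19 were higher and 2 lower by limma, against 35.7% and 8.89% of all genes, and the median was 0.03 over the members and 0.16 over all genes. The higher members were 13 of 37 in complex I (35.1%, close to the share of all genes), 3 of 4 in complex II and 1 each in complexes III, IV and V, namely UQCRC2, COX5A and ATP5PO. The 2 lower members were NDUFA4 and ATP5MC2. Only the readthrough gene NDUFC2-KCTD14 passed a fold change of 2, with a log2 fold change of 1.00 (limma adjusted p = 0.0384), which 3.89% of genes exceeded upward and 0.456% downward. The direction of the SAM calls turned with the scaling. Median-of-ratios scaling moved the median of all genes from 0.16 to -0.01, a shift of similar size to most of these changes, and left 1 member higher, NDUFB2, and 32 lower, 12 of them in complex I, 1 in complex II, 4 in complex III, 7 in complex IV and 8 in complex V, against 18.0% of all genes higher and 21.2% lower on that scale. The sign of the SAM difference changed for 29 of the 82 members, and 17 were positive in place of 46.

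With dCas9-VPR 7 members were higher and 0 lower at FDR below 0.05 in limma, against 11.0% and 6.68% of all genes, and 15 members had an unadjusted p below 0.05. The median was 0.04 over the members and 0.06 over all genes. The higher members were NDUFA3, NDUFB2, NDUFS5, NDUFV2 and NDUFA12 of complex I and SDHC and SDHA of complex II. No member passed a fold change of 2, which 0.463% of genes exceeded upward and 0.641% downward. After median-of-ratios scaling 1 member was higher, NDUFA3, and 1 lower, against 8.13% and 8.97% of all genes.

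**Figure D3:**
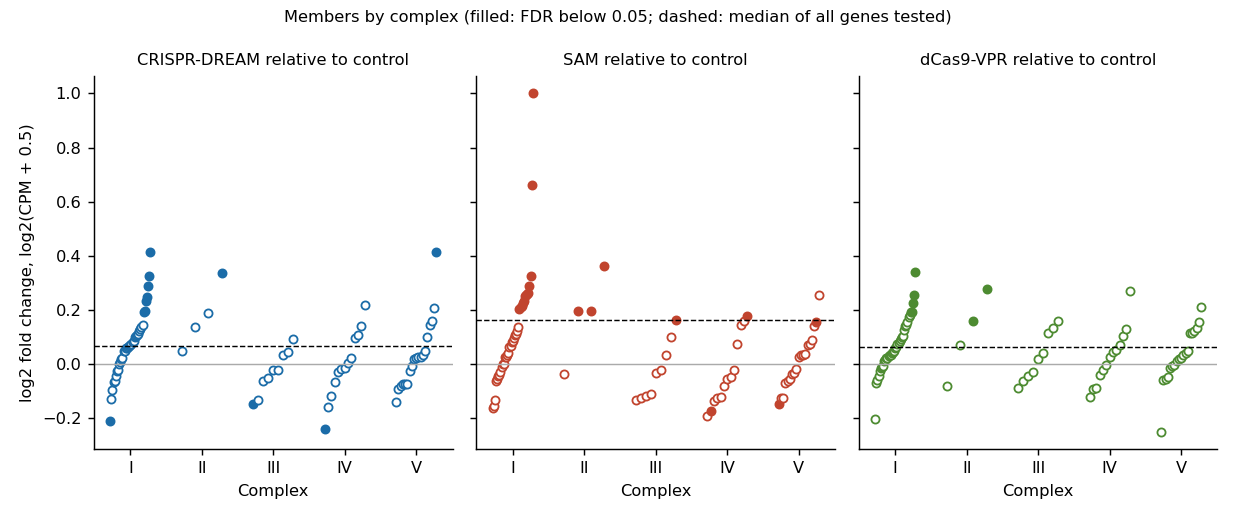
Log2 fold change relative to the control (y axis, log2 of CPM + 0.5) of the 82 tested members by complex (x axis), 1 panel per system, with filled points at FDR below 0.05 and a dashed line at the median of all genes. Complex I holds 7, 13 and 5 higher calls with CRISPR-DREAM, SAM and dCas9-VPR (18.9%, 35.1% and 13.5% of its genes, against 18.8%, 35.7% and 11.0% of all genes), and for SAM the split over all members of 19 higher and 2 lower becomes 1 and 32 after median-of-ratios scaling.

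NDUFB2, an accessory subunit in the membrane arm of complex I, varied most among the members other than the readthrough genes. It lies on chromosome 7 (hg38 140690777 to 140722791, plus strand). It measured 84.5 and 88.4 CPM in the control libraries, 108 and 122 with CRISPR-DREAM, 136 and 139 with SAM, and 102 and 105 with dCas9-VPR. All 6 libraries with an activator lay above both control libraries, and the SAM libraries lay above all others. Log2 fold changes were 0.41 (SE 0.06), 0.66 (SE 0.06) and 0.26 (SE 0.06), with limma adjusted p of 0.00117, 5.96e-05 and 0.0229. After median-of-ratios scaling they were 0.34, 0.48 and 0.20, and the last no longer passed the threshold (limma adjusted p = 0.0852). Relative to the median member of the same library, a ratio that scaling does not change, NDUFB2 stood higher than in the control by 0.38, 0.66 and 0.20 on the log2 scale, without overlap. Lack of overlap on this ratio was common among the members and occurred in both directions. COX6C, for example, stood lower by -0.28, -0.13 and -0.17, also without overlap. The antisense gene NDUFB2-AS1 was at 0.136 to 0.593 CPM, under 1% of NDUFB2.

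Other accessory subunits of complex I moved by smaller amounts. NDUFA12, a subunit of the peripheral arm, measured 56.0 and 56.1 CPM in the control libraries, 64.0 and 64.7 with CRISPR-DREAM, 71.9 and 68.6 with SAM and 62.9 and 65.3 with dCas9-VPR, with log2 fold changes of 0.20, 0.32 and 0.19. NDUFA3, a small membrane subunit, was at 51.7 and 47.4, 57.5 and 63.6, 57.4 and 57.3, and 62.4 and 63.0 CPM, with log2 fold changes of 0.29, 0.21 and 0.34. In both genes every library with an activator lay above the control, and limma called all 6 differences (adjusted p from 0.00156 to 0.046). NDUFA13, also known as GRIM-19 and the complex I gene with the highest level per kb, measured 267 and 280 CPM in the control libraries, 302 and 347 with CRISPR-DREAM, 308 and 330 with SAM and 301 and 303 with dCas9-VPR. It passed with CRISPR-DREAM (0.25, limma adjusted p = 0.0202) and SAM (0.22, limma adjusted p = 0.02). NDUFS5 passed with dCas9-VPR alone, at 140 and 147 CPM in the control and 165 and 171 CPM there (log2 fold change 0.23, limma adjusted p = 0.032). Median-of-ratios scaling removed the higher calls of NDUFA12, NDUFA13 and NDUFS5, and left that of NDUFA3 with dCas9-VPR alone. NDUFB3 was the lower one, at 48.1 and 46.9 CPM in the control and 39.9 and 42.1 CPM in the CRISPR-DREAM libraries (-0.21, limma adjusted p = 0.0303). It was at 42.8 and 42.4 CPM with SAM and 48.5 and 48.5 CPM with dCas9-VPR. The called accessory subunits of complex I therefore included both directions with CRISPR-DREAM.

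Of the core subunits of complex I described here, which carry electrons from NADH towards coenzyme Q, NDUFV2 was the 1 that limma called. It encodes an iron-sulfur subunit of the NADH-oxidizing module and measured 57.9 and 60.3 CPM in the control libraries, 73.8 and 74.3 with CRISPR-DREAM, 72.9 and 71.6 with SAM, and 68.0 and 67.2 with dCas9-VPR. The groups did not overlap the control, and log2 fold changes were 0.32, 0.29 and 0.19 (limma adjusted p = 0.00208, 0.00243 and 0.0388). After median-of-ratios scaling the NDUFV2 call remained with CRISPR-DREAM alone. The core genes NDUFS1, NDUFS3, NDUFS7, NDUFS8 and NDUFV1 were not called on CPM in any comparison with the control. NDUFS8, which carries iron-sulfur clusters in the arm that leads to coenzyme Q, was among the steadiest members, between 149 and 157 CPM in all libraries. NDUFV1, the flavin-binding partner of NDUFV2, measured 211 and 198 CPM in the control libraries and between 206 and 221 CPM elsewhere.

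All 4 complex II subunits are nuclear-encoded. SDHC, which anchors the complex in the membrane with SDHD, measured 168 and 172 CPM in the control libraries, 202 and 226 with CRISPR-DREAM, 211 and 225 with SAM and 204 and 207 with dCas9-VPR. No activator library overlapped the control, and log2 fold changes were 0.33, 0.36 and 0.28 (SE 0.06 each, limma adjusted p = 0.00279, 0.00111 and 0.0138). After median-of-ratios scaling they were 0.26, 0.18 and 0.22, and limma then called the first alone (adjusted p = 0.024, 0.0744 and 0.059). SDHA, the flavoprotein that binds succinate, measured 188 and 187 CPM in the control libraries, 194 and 194 with CRISPR-DREAM, 183 and 182 with SAM and 209 and 210 with dCas9-VPR, and limma called the last (0.16, adjusted p = 0.035). SDHB, the iron-sulfur subunit, was at 147 and 149, 161 and 177, 162 and 178, and 136 and 144 CPM, and limma called the SAM difference (0.19, adjusted p = 0.0331). SDHD was at 121 and 125, 132 and 138, 140 and 142, and 125 and 132 CPM, and limma called the SAM difference (0.20, adjusted p = 0.0133). SDHA and SDHB therefore sat on opposite sides of the control with dCas9-VPR, although the SDHB difference of -0.08 was not called (95% interval -0.23 to 0.06). The higher calls of SDHA, SDHB and SDHD relative to the control did not remain after median-of-ratios scaling.

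In complex III the core genes UQCRC1 and UQCRC2 were at 503 and 554 CPM and at 294 and 308 CPM in the control. UQCRC2 was called with SAM, at 335 and 338 CPM (0.16, limma adjusted p = 0.0161), and changed sign to -0.0213 after median-of-ratios scaling. UQCRC1 was not called in any comparison with the control, and its log2 difference had 95% intervals of -0.18 to 0.13 with CRISPR-DREAM, -0.27 to 0.04 with SAM and -0.22 to 0.09 with dCas9-VPR. UQCRFS1, the Rieske iron-sulfur protein, measured 142 and 148 CPM in the control libraries, 125 and 139 with CRISPR-DREAM, 147 and 149 with SAM and 140 and 144 with dCas9-VPR, with no call on CPM. UQCRB, which binds near the coenzyme Q site, measured 194 and 189 CPM in the control libraries and 174 and 171 CPM in the CRISPR-DREAM libraries (-0.15, limma adjusted p = 0.0477).

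Complex IV held the largest called fall relative to the control. COX6C, a small membrane subunit, measured 100 and 96.7 CPM in the control libraries, 85.5 and 80.9 with CRISPR-DREAM, 87.7 and 92.4 with SAM and 90.4 and 90.2 with dCas9-VPR. All activator libraries lay below the control, and limma called the CRISPR-DREAM difference (-0.24, SE 0.06, adjusted p = 0.0108), which was -0.31 after median-of-ratios scaling. NDUFA4 measured 189 and 199 CPM in the control libraries and 170 and 174 CPM with SAM (-0.18, limma adjusted p = 0.0482). COX5A, a matrix-facing subunit, measured 224 and 219 CPM in the control libraries and 254 and 247 CPM with SAM (0.18, limma adjusted p = 0.0151), and this became -0.00604 after median-of-ratios scaling. COX4I1, the main form of the largest nuclear subunit, measured 538 and 571 CPM in the control libraries, 521 and 591 with CRISPR-DREAM, 512 and 556 with SAM and 514 and 527 with dCas9-VPR, with no call. The same held for COX5B and for COX7A2L, a supercomplex factor.

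Few ATP synthase genes were called. ATP5F1B measured 1306 and 1344 CPM in the control libraries, 1304 and 1397 with CRISPR-DREAM, 1289 and 1323 with SAM, and 1349 and 1391 with dCas9-VPR, and its 95% intervals lay between -0.13 and 0.16 in all 3 comparisons. All 5 subunits of the catalytic F1 part were without a call relative to the control, as was the inhibitor ATP5IF1. Of the c-ring genes, ATP5MC2 measured 506 and 509 CPM in the control libraries and 470 and 446 CPM with SAM (-0.15, limma adjusted p = 0.028), at 502 and 530 CPM with CRISPR-DREAM and at 524 and 520 CPM with dCas9-VPR. ATP5MC1 and ATP5MC3 were not called, although ATP5MC1 measured 129 and 133 CPM in the control libraries and 146 and 157 CPM with dCas9-VPR (0.21, limma adjusted p = 0.0561). ATP5PO, in the stalk that holds the catalytic head still, measured 391 and 407 CPM in the control libraries and 437 and 452 CPM with SAM (0.16, limma adjusted p = 0.029), a call that median-of-ratios scaling removed.

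**Figure D4:**
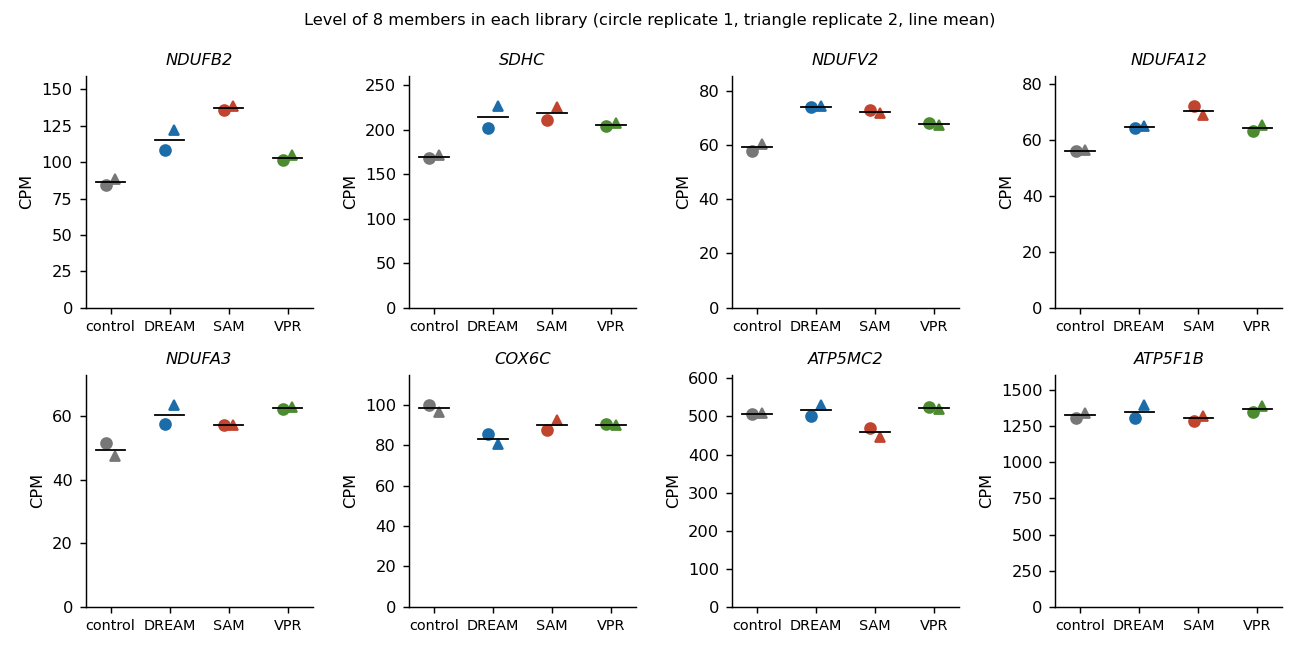
CPM (y axes, from 0) of 8 members in each library by group (x axes), with circles for replicate 1, triangles for replicate 2 and lines for group means. NDUFB2 rises from 84.5 and 88.4 CPM in the control to 136 and 139 CPM with SAM, COX6C falls to 85.5 and 80.9 CPM with CRISPR-DREAM, and ATP5F1B stays between 1289 and 1397 CPM.

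The readthrough genes, which join a member to its neighbour, were the least certain. NDUFC2-KCTD14 (chromosome 11, hg38 78016971 to 78079866, minus strand) measured 1.87 and 2.38 CPM in the control libraries, 2.01 and 2.75 with CRISPR-DREAM, 5.02 and 4.45 with SAM, and 1.14 and 3.57 with dCas9-VPR. Both SAM libraries lay above all others, and the CRISPR-DREAM and dCas9-VPR libraries overlapped the control. Its canonical transcript shares 339 of 530 bases with NDUFC2 and 96 with KCTD14, so the value depends on how reads were divided among the 3 genes. NDUFC2 itself, a membrane-arm subunit, measured 106 and 112 CPM in the control libraries and 129 and 132 CPM with SAM (0.26, limma adjusted p = 0.00357), and KCTD14 was at 0.319 and 0.389 CPM and at 1.23 and 1.83 CPM. The NDUFC2 call did not remain after median-of-ratios scaling. ATP5MF-PTCD1 measured 12.3 and 11.4 CPM in the control libraries, 15.9 and 16.0 with CRISPR-DREAM, 13.3 and 15.3 with SAM and 8.92 and 10.9 with dCas9-VPR. It shares 94.2% of its 2491 bases with PTCD1, a mitochondrial RNA-binding protein gene at 15.1 and 16.8 CPM in the control and 12.3 and 11.1 CPM with dCas9-VPR, and 144 bases with ATP5MF. It is thus closer in sequence to PTCD1 than to the ATP synthase gene.

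Pseudogenes of the members could also take reads. The 10 such genes in the tables summed to a mean of 23.7 ± 2.02 CPM in the control, 20.8 ± 3.27 with CRISPR-DREAM, 18.9 ± 4.02 with SAM and 16.8 ± 0.128 with dCas9-VPR (SD, n = 2 each), against 14987 CPM or more for the members.

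**Figure D5:**
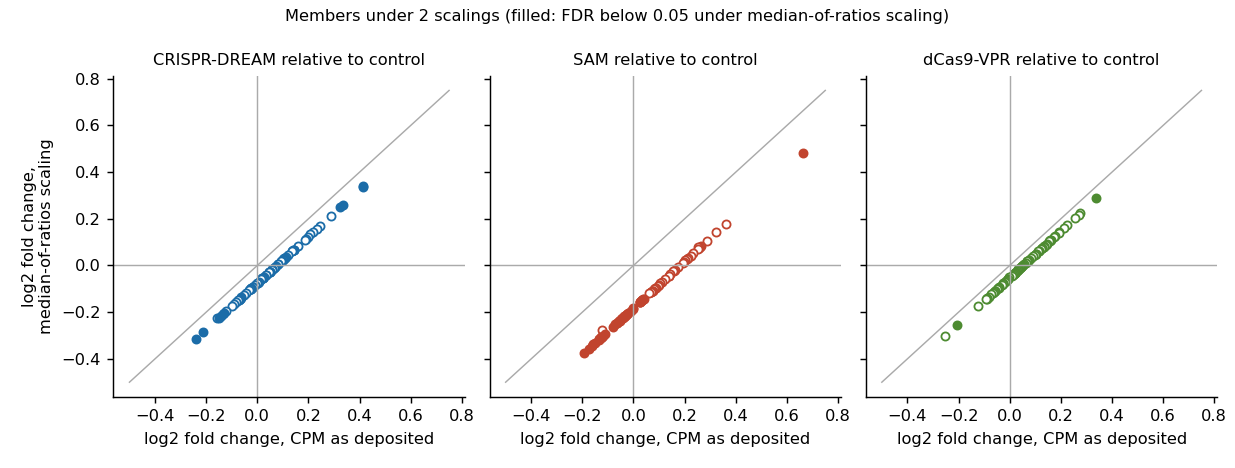
Log2 fold change relative to the control under CPM as deposited (x axis) and under median-of-ratios scaling (y axis) for 81 members, with NDUFC2-KCTD14 left out for its range and the grey diagonal marking equal values. Points are filled at FDR below 0.05 under median-of-ratios scaling. Members keep their order, and the SAM points sit lowest below the diagonal, with 1 higher and 32 lower calls in place of 19 and 2.

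CRISPR-DREAM was also compared with the other activators directly. Relative to SAM, 1 member was higher (ATP5MC2, 0.17, limma adjusted p = 0.0464) and 1 lower (NDUFB2, -0.25, limma adjusted p = 0.0353), against 1.59% and 9.14% of all genes. No member passed a fold change of 2, which 0.119% of genes exceeded upward and 0.602% downward. After median-of-ratios scaling 5 members were higher and 0 lower by limma, against 5.30% and 3.55% of all genes, and NDUFB2 was at -0.14 (limma adjusted p = 0.24). Relative to dCas9-VPR, 3 were higher and 3 lower, against 7.90% and 5.21% of all genes. The higher members were ATP5MF-PTCD1 (0.66, limma adjusted p = 0.00627), NDUFB9 (0.29, limma adjusted p = 0.0204) and SDHB (0.27, limma adjusted p = 0.0236). After median-of-ratios scaling 2 were higher and 5 lower, against 6.91% and 6.81% of all genes, and SDHB no longer passed (0.25, limma adjusted p = 0.0580). No member passed a fold change of 2, which 0.721% of genes exceeded upward and 0.0132% downward. NDUFB9, a membrane-arm subunit, measured 145 and 161 CPM in the CRISPR-DREAM libraries and 126 and 124 in those of dCas9-VPR. The lower members were NDUFB3 (-0.24), NDUFA1 (-0.20) and ATP5ME (-0.20), with limma adjusted p between 0.0326 and 0.0414. NDUFB3 and NDUFA1 are small membrane-arm subunits of complex I, and ATP5ME is a small membrane subunit of the ATP synthase.

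A call that misses the threshold does not show that a gene kept its level, so the intervals are given as well. The 95% interval of the change lay within 1.5-fold in either direction for 80 of 82 members with CRISPR-DREAM, 80 with SAM and 81 with dCas9-VPR, compared with 85.6%, 78.3% and 88.8% of the 9799 genes averaging at least 10 CPM. It lay within 1.2-fold for 60, 48 and 60 members, compared with 29.5%, 22.8% and 33.5% of those genes. NDUFC2-KCTD14 lay outside 1.5-fold in all 3 comparisons, ATP5MF-PTCD1 with CRISPR-DREAM and NDUFB2 with SAM. Across all 8 libraries the ratio of the highest to the lowest CPM had a median of 1.19 and was under 1.2 for 46 of 82 members. It exceeded 1.5 in NDUFB2 (1.64), ATP5MF-PTCD1 (1.80) and NDUFC2-KCTD14 (4.39), and the steadiest members were ATP5PF and NDUFS8 (1.06 each) and ATP5F1B (1.08).

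The calls were also split by level. With SAM, 13 of 43 members with a mean below 150 CPM were higher and 0 lower, compared with 6 higher and 2 lower of the 39 above it. Both shares of higher members were below the 35.7% of all genes, of which 8.89% were lower. The split was made on CPM alone. After median-of-ratios scaling 1 of the 82 members was higher with SAM and 32 were lower. Spearman's rho between the log2 fold change and the mean CPM across the 82 members was -0.33 with SAM, -0.10 with CRISPR-DREAM and -0.21 with dCas9-VPR. These points share libraries and a control, and each is a description. Transcript length showed rho of 0.02, 0.05 and -0.19.

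The 13 mRNAs of mitochondrial DNA, which encode the partner subunits, varied far more than the nuclear members. They summed to 12254 and 8940 CPM in the control, 14565 and 9977 with CRISPR-DREAM, 13063 and 11699 with SAM and 13116 and 15937 with dCas9-VPR. CRISPR-DREAM and SAM overlapped the control, whereas both dCas9-VPR libraries lay above it, by a mean of 37.1% as CPM and 32.6% after median-of-ratios scaling. All 13 log2 fold changes were positive in each comparison, with medians of 0.20, 0.25 and 0.48. Limma called 0 of 13 in each comparison, with 0, 1 and 4 at an unadjusted p below 0.05 for CRISPR-DREAM, SAM and dCas9-VPR. The spread between the libraries of a group, with an SD of 2344 CPM in the control, was larger for these genes than the 433 CPM for all 84 nuclear members.

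Assembly factors, which build the complexes without staying in them, included a few called changes of a size that few subunits reached. Of all 15122 genes tested, 18.8% were higher and 9.25% lower with CRISPR-DREAM, 35.7% and 8.89% with SAM, and 11.0% and 6.68% with dCas9-VPR. After median-of-ratios scaling these shares were 13.7% and 14.4%, 18.0% and 21.2%, and 8.13% and 8.97%. The same shares apply to the carriers, regulators and ribosomal protein genes below. Of the 18 complex I factors, 2 were higher and 2 lower with CRISPR-DREAM, 4 and 1 with SAM and 3 and 2 with dCas9-VPR (1 and 3, 2 and 6, and 2 and 2 after median-of-ratios scaling). NDUFAF1, an early-acting factor, measured 11.3 and 12.1 CPM in the control libraries, 18.1 and 19.4 with CRISPR-DREAM, 18.2 and 19.8 with SAM and 13.9 and 12.8 with dCas9-VPR. It was called with CRISPR-DREAM (0.66, limma adjusted p = 0.000771) and SAM (0.68, limma adjusted p = 0.000427), also after median-of-ratios scaling (0.59 and 0.50). TMEM126B, which acts in the same assembly complex, was lower with CRISPR-DREAM, at 45.8 and 44.7 CPM in the control and 35.7 and 36 CPM (-0.33, limma adjusted p = 0.00371). Of the 24 complex IV factors, 1 was higher and 1 lower with CRISPR-DREAM, 6 and 1 with SAM and 1 and 2 with dCas9-VPR (1 and 3, 0 and 6, and 0 and 4 after median-of-ratios scaling). CMC2, a small cysteine-rich factor, measured 56.0 and 58.9 CPM in the control libraries, 42.0 and 43.6 with CRISPR-DREAM, 45.1 and 48.4 with SAM and 47.1 and 49.9 with dCas9-VPR, and was called lower in each (-0.42, -0.29 and -0.24 on the log2 scale).

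Of the 5 ATP synthase assembly factors, 2 were higher and 1 lower with CRISPR-DREAM, 3 and 1 with SAM and 1 and 1 with dCas9-VPR (1 and 1 in each after median-of-ratios scaling). ATPAF1, a chaperone for the F1 part, measured 118 and 109 CPM in the control libraries, 155 and 144 with CRISPR-DREAM, 143 and 143 with SAM and 142 and 138 with dCas9-VPR (0.40, 0.34 and 0.31). TMEM70, which aids c-ring assembly, measured 58.0 and 57.4 CPM in the control libraries, 43.7 and 49.5 with CRISPR-DREAM, 48.2 and 48.6 with SAM, and 46.6 and 42.8 with dCas9-VPR (-0.31, -0.25 and -0.37). Limma called all 6 of these differences under both scalings. Of the 4 complex II factors, SDHAF4 and SDHAF2 were higher with SAM and 0 were called in the other systems, with 1 at an unadjusted p below 0.05 for CRISPR-DREAM and 0 for dCas9-VPR. After median-of-ratios scaling SDHAF4 remained with SAM, and 1 factor was lower with CRISPR-DREAM. Of the 6 complex III factors, 1 was higher with CRISPR-DREAM (UQCC2), 1 higher with SAM (LYRM7) and 1 lower with dCas9-VPR (UQCC1), and after median-of-ratios scaling these counts were 0 higher and 0 lower, 0 and 2, and 0 and 1.

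Among 17 genes of electron carriers and coenzyme Q synthesis, 2 were higher and 1 lower with CRISPR-DREAM, 3 and 3 with SAM and 0 and 1 with dCas9-VPR (1 and 2, 0 and 8, and 0 and 1 after median-of-ratios scaling). CYCS, cytochrome c, measured 242 and 247 CPM in the control libraries, 214 and 211 with CRISPR-DREAM, 213 and 214 with SAM and 221 and 222 with dCas9-VPR, below the control in all 6 libraries. CYC1, the cytochrome subunit of complex III whose symbol fell outside the naming rule, measured 368 and 396 CPM in the control libraries and 299 and 318 CPM with SAM (-0.31, limma adjusted p = 0.0126).

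Among 18 regulators, 1 was higher and 3 lower with CRISPR-DREAM, 4 higher and 0 lower with SAM, and 0 called with dCas9-VPR by limma, where 2 had an unadjusted p below 0.05 (0 and 5, 1 and 5, and 0 and 1 after median-of-ratios scaling). The coactivator PPARGC1A measured 3.45 and 3.20 CPM in the control libraries, 2.06 and 1.33 with CRISPR-DREAM, 3.37 and 3.04 with SAM and 2.49 and 2.47 with dCas9-VPR, and limma called the CRISPR-DREAM difference (-0.82, adjusted p = 0.00631). ESRRG, a nuclear receptor that works with it, measured 5.2 and 6.65 CPM in the control libraries and 3.76 and 2.98 CPM in the CRISPR-DREAM libraries (-0.73, limma adjusted p = 0.00547). Both were also lower after median-of-ratios scaling (-0.88 and -0.80). With SAM the GABP subunit genes GABPB1 (25.9 and 26.5 CPM in the control, 34.7 and 37.4 CPM) and GABPA (67.5 and 62.4 CPM, 81.3 and 86.6 CPM) were higher by 0.45 and 0.37 (limma adjusted p = 0.000903 and 0.00346), and after median-of-ratios scaling by 0.27 and 0.19, where GABPA no longer passed (limma adjusted p = 0.053). NRF1 was between 23.1 and 26.9 CPM in all libraries and was called lower with SAM only after median-of-ratios scaling (-0.29, limma adjusted p = 0.0144).

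Mitochondrial and cytosolic ribosomal protein genes give a scale for the members. Of 78 mitochondrial ribosomal protein genes, 5 were higher and 2 lower with CRISPR-DREAM, 21 and 4 with SAM and 2 and 7 with dCas9-VPR (2 and 7, 3 and 21, and 1 and 10 after median-of-ratios scaling), so their SAM calls turned with the scaling as those of the members did. Of 83 cytosolic ribosomal protein genes, 0 were higher and 29 lower with CRISPR-DREAM, 2 and 57 with SAM and 0 and 35 with dCas9-VPR, and they were lower under median-of-ratios scaling as well (0 and 40, 0 and 75, and 0 and 31).

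The libraries of a group also differed from each other in these genes. Replicate 2 was higher than replicate 1 for 62 of 82 members in the control, 71 with CRISPR-DREAM, 57 with SAM and 51 with dCas9-VPR, with a median difference of 0.06, 0.10, 0.05 and 0.02 on the log2 scale, compared with -0.03, -0.06, -0.01 and -0.01 over all genes. These differences within groups were of the same size as the medians between groups. Of the members called relative to the control, NDUFB2, NDUFV2 and SDHC with CRISPR-DREAM, and NDUFA12, NDUFB2, NDUFC1, NDUFC2, NDUFV2 and SDHC with SAM, were called without each library in turn. With dCas9-VPR no member was, and the count of 7 became 1 without control replicate 1 and 0 without control replicate 2 or either dCas9-VPR library.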

How the data were processed

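The authors aligned 75-base paired-end reads to hg38 (Gencode 36) with STAR 2.7.3a, estimated transcript levels with a Bayesian method, and the deposited CPM values have 0.0001 added. The methods name a total RNA kit and the labels polyA RNA. CPM values are not counts, so no count model was run, and the DESeq2 analysis of the study was not repeated. Depth was inferred from the spacing of low values, of which 62.7% to 67.5% were whole multiples of 1 step (tolerance 0.02 of a step). The log2 of CPM + 0.5 was modelled in limma 3.58.1 (R 4.3.3, trend and robust) on all 8 libraries, with 1 coefficient per group and 4 residual degrees of freedom, for 15122 genes, those that reached 1 CPM in 2 or more libraries. Adjustment was Benjamini-Hochberg over all of them. Fold changes are on the log2(CPM + 0.5) scale and understate changes of low genes. With 2 libraries against 2, an exact permutation test of 1 gene cannot give a p below 0.333, so single sums and levels carry no p. The fit was tested on simulated data, where it missed most of the smallest changes put in and recovered most of the larger ones.

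The members, lists, motifs and named genes were chosen with earlier results of these data known. Named members were the 5 largest called rises and falls relative to the control in each system, core subunits, paralog sets, the highest level per kb in each complex, and members past a fold change of 2. Genes named in the other lists came from the 3 largest called changes per comparison, not all of which are described. NDUFA1, NDUFB9, NDUFC1, NDUFC2, ATP5F1B, ATP5IF1, ATP5ME, ATP5MF, ATP5PF, ATP5PO, KCTD14, PTCD1 and NRF1 were named after their values were seen. Alternatives were another scaling, pseudocount, low-value filter and set of libraries, a replicate block and leaving out each library. Transcript lengths came from Gencode 44, which may differ from the models used for the reads, and promoters from RefSeq (GRCh38.p14). Tables were handled with Python 3.11.15, pandas 2.3.3 and numpy 2.4.6. A named value that the rule covers is not reported here.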

Additional observations from a re-analysis of the deposited data

How the results depend on the processing

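Counts below are members at FDR below 0.05 in limma out of 82, first for CRISPR-DREAM, SAM and dCas9-VPR against the control and last for CRISPR-DREAM against SAM and against dCas9-VPR, where the counts as reported were 12, 21, 7, 2 and 6. Adding the study's fold change of 2 left 0, 1, 0, 0 and 0 members. Fitting only the 4 libraries compared gave 6, 23, 12, 1 and 2. Median-of-ratios scaling gave 8, 33, 2, 5 and 7, moved the members' median log2 fold change to -0.0351, -0.149, -0.0110 and 0.0963 in the first 4 comparisons, and changed the sign of the SAM difference for 29 of 82 members, including NDUFV1 (-0.142), UQCRC2 (-0.0213) and COX5A (-0.00604). The sign changed for 22 members with CRISPR-DREAM and 20 with dCas9-VPR. Which scaling is nearer to the RNA content of the cells was not tested. Leaving out 1 library gave 4 to 14, 8 to 11, 0 to 1, 0 to 6 and 0 to 8 members and medians of -0.0238 to 0.0939, 0.0253 to 0.0524, 0.0296 to 0.0602, -0.0617 to 0.0481 and -0.0467 to 0.0248. With CRISPR-DREAM the count was 4 without control replicate 1 and 5 without control replicate 2, and with SAM it was 8, 11, 11 and 8 without control replicates 1 and 2 and SAM replicates 1 and 2. The lone library left in a group was assumed to vary like the others. Against SAM the count was 6 without CRISPR-DREAM replicate 1 and 0 without either SAM library. Against dCas9-VPR it was 0 without dCas9-VPR replicate 1 and 1 without dCas9-VPR replicate 2.

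The replicate numbers are shared by all groups, but nothing says what they mark. Differences of replicate 2 from replicate 1 correlated between groups at 0.133 to 0.326 over all genes. Over the members the correlations ranged from 0.0223 (SAM and dCas9-VPR) to 0.548 (control and CRISPR-DREAM). With only 2 numbers a pairing cannot be established. With the replicate number as a block, 26, 38, 26, 16 and 28 members were called, of which 19, 26, 22, 7 and 9 were higher. Calls also grew over all 15122 genes, to 4444 higher and 2312 lower with CRISPR-DREAM, 6799 and 1980 with SAM, and 3735 and 1939 with dCas9-VPR. For CRISPR-DREAM they were 987 and 3630 against SAM, and 2512 and 1975 against dCas9-VPR. Between libraries of the same number, the members' summed CPM as deposited was above the control in all 3 systems. After median-of-ratios scaling the sum was below the control in both replicates with SAM. On that scale it was below the control in replicate 1 and above it in replicate 2 with CRISPR-DREAM, and the reverse with dCas9-VPR. Pseudocounts of 0.1 and 1, scaling to nuclear protein-coding genes and no filter on low values kept each of these counts within 1.5 times and each median within the replicate spread. COX6B2 and COX8C were too low to be tested, and the readthrough gene NDUFC2-KCTD14 had wide intervals.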
